A study of Mus musculus with 4 samples.

Results

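The 10 genes described here encode proteins of the interstitial matrix, the fibre network that fibroblasts lay down between cells: the fibrillar collagen chains Col1a1, Col1a2, Col3a1, Col5a1 and Col5a2, the collagen VI chain Col6a1, the microfibril protein Fbn1, the fibulin Fbln2, the proteoglycan Bgn and the glycoprotein Tnc. They were taken by symbol from a table of 27542 genes and transcribed loci, and each of the 10 symbols had 1 row. The expression table came from RNA sequencing of the mouse line TBV2, which consists of embryonic stem (ES) cells. The control was 1 library labelled N.T. (NT), with the genotype given as control. The knockdown (KD) was 3 libraries, each from a separate clone with lowered T-UCstem1, a long noncoding RNA holding the ultraconserved element uc.170. All cultures were in serum with LIF, the cytokine that sustains mouse ES cells. The series adds feeder cells and high density to the conditions, and whether feeder cells were removed before RNA extraction was not given in the sources used here. Further, the agent used for the knockdown, the age of the cultures and the level of T-UCstem1 were not analysed here.

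Fibrillar collagens of types I, III and V assemble into the cable-like fibrils of connective tissue, with type V chains inside the fibril setting its width. Fibrillin forms microfibrils that hold latent TGF-beta, and collagen VI, fibulins and small leucine-rich proteoglycans link fibrils, microfibrils and cells to each other. ES cell colonies are epithelial, and their own matrix is known mainly for laminins and fibronectin, whereas interstitial fibrils are the product of mesenchymal cells.

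Tnc, Bgn and Fbln2 rose in the KD by the authors' mark, and none of the 10 genes fell. Each of the 3 stood between 2.05 and 2.66 FPKM in NT and between 13.3 and 16.3 FPKM in the KD, where FPKM counts sequenced fragments relative to transcript length and to all mapped fragments of a library. Of the 9 genes tested by the authors, 3 were called higher and 6 were not called. By the same mark 0.963% of all 15477 tested rows were called higher and 0.187% lower, and over the 5408 of them under 3 FPKM in NT, a limit chosen after the values were seen, 1.63%. All 10 genes had a higher FPKM in the KD than in NT, with KD over NT ratios from 2.24 to 6.50. Among tested rows 50.9% had a higher value in the KD, and among those under 3 FPKM in NT 55.3%. The summed level of the 10 genes was 58.5 FPKM in KD cells and 11.6 FPKM in NT.

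Each condition has 1 deposited FPKM per gene, the KD value standing for all 3 clones, so there is no SD, standard error or n behind a level. Calls are those of Cuffdiff at a q, the p-value adjusted over all tested rows, of 0.05. With 1 control library these p-values hold no measured spread between control cultures.

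**Figure D1:**
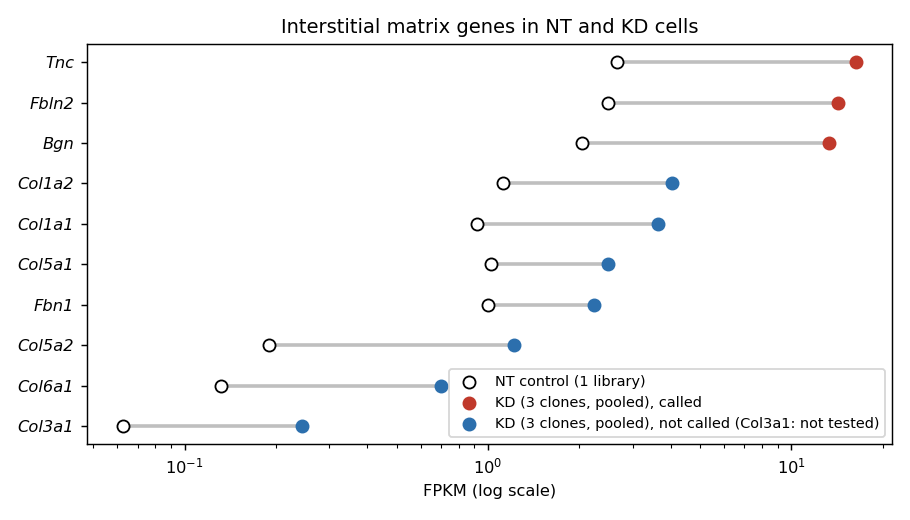
FPKM on a log scale of the 10 interstitial matrix genes, 1 gene per line, with open circles for the NT library and filled circles for the pooled KD value, red where called. Every filled circle lies to the right of its open circle, and the called genes Tnc, Fbln2 and Bgn have the highest levels in both conditions.

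Tnc encodes tenascin-C, a large multi-armed glycoprotein of embryonic and remodelling matrix that weakens cell adhesion to fibronectin. It stood at 2.66 FPKM in NT and 16.3 FPKM in the KD, the highest level of the 10 genes in each condition. Its log2 fold, computed as KD over NT after adding 1 FPKM to each value, was 2.24, with q = 0.00815 in the authors' deposited table. Of the 15477 tested rows 67 had a higher log2 fold. The gene spans 63620818 to 63708049 on chromosome 4 of build mm9.

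Bgn encodes biglycan, a small leucine-rich proteoglycan that binds collagen fibrils and growth factors. Its level was 2.05 FPKM in NT and 13.3 FPKM in the KD. The ratio of 6.50 was the highest of the 10 genes, the log2 fold was 2.23 and the q in the authors' deposited table was 0.00815. Bgn lies on chromosome X (mm9, 70728973 to 70741275), where the median log2 fold over 461 rows with at least 1 FPKM in either condition was 0.11.

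Fbln2 encodes fibulin-2, which bridges fibrillin microfibrils, elastin and basement membrane proteins. It was at 2.48 FPKM in NT and 14.3 FPKM in the KD, a log2 fold of 2.13 with q = 0.00815 in the authors' deposited table. Fbln2 lies on chromosome 6 (mm9, 91162757 to 91222534), and 603 rows of that chromosome had a median log2 fold of 0.26 against 0.0099 over the 13455 rows of all chromosomes at that level. With the chromosome median subtracted its log2 fold was 1.88. The 3 genes have equal q-values in the authors' deposited table because 95 tested rows share the smallest p-value, 5e-05, and these rows have no finer order.

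The stretches of DNA just before the start sites of the called genes are shown to let them be compared with that of Col3a1, which had the lowest level of the 10 genes. The sequences are those of RefSeq on build GRCm38.p6, which is not the build of the expression table, and 8 of the 10 genes matched by symbol. Col1a1 and Col5a2 did not match. Each run gives the 250 bases before a start site, 5′ to 3′ on the gene's strand, and capitals mark matches, on either strand, to short motifs. The motif of the TATA box, which positions the transcription machinery, was searched as TATAA. The GC box, a site of the general factor Sp1, was searched as GGGCGG, and the CCAAT box by its name. Sites of the signal-responsive factors were searched as TGANTCA for AP-1, as GGAATG for TEAD and as CAGAC for SMAD. Tnc has 2 start sites in RefSeq, with windows that overlap, and the downstream window is shown (chr4:64046937-64047186, minus strand). The others are Bgn (chrX:73483351-73483600, plus strand), Fbln2 (chr6:91212514-91212763, plus strand) and Col3a1 (chr1:45311288-45311537, plus strand).
Tnc: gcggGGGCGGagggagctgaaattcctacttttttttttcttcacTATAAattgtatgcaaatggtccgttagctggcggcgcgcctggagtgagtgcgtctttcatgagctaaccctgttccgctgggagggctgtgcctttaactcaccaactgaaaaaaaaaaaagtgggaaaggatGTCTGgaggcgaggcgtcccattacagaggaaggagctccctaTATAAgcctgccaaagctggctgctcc
Bgn: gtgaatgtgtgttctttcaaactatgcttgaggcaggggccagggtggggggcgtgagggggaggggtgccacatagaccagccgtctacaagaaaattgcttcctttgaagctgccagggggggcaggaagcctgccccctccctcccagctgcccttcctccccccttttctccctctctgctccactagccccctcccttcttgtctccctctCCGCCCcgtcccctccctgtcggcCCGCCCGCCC
Fbln2: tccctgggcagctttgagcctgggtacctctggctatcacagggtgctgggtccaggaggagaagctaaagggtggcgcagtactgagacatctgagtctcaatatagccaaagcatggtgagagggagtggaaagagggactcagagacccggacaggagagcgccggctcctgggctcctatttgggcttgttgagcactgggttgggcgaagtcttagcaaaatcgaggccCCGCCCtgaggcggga
Col3a1: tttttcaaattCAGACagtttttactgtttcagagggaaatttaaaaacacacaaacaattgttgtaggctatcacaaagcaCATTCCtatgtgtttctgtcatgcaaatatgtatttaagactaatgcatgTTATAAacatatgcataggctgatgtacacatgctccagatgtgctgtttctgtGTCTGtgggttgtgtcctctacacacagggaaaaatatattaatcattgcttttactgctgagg

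In these windows Tnc, Bgn and Fbln2 each held a GC box, and Col3a1 did not. The GC box was found before 6 of the 8 matched genes, the others being Col1a2, Col5a1 and Fbn1, and in 32.7% of the 32851 RefSeq windows of the same length. Bgn has 3 matches to it, of which 2 overlap, and 1 of these 2 ends at the start site. The TATA box was found before Tnc and Col3a1 and in 22.8% of all windows. In the Tnc window it begins 27 bases before the start site, and another match lies further upstream. The SMAD letters were found before Tnc, Col3a1, Col1a2 and Col5a1 and in 42.2% of all windows. Those of AP-1 were found before Col6a1 (6.75% of all windows), those of TEAD before Col3a1 (12.6%) and the CCAAT box before Col1a2 (33.8%). The printed windows of the called genes ranged in GC content from 51.2% for Tnc to 64.4% for Bgn, the other Tnc window had 44.8%, that of Col3a1 had 35.2%, and the median of all windows was 52.4%. These matches describe letters in a window and were not tested for binding.

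The chains of type I collagen, the main fibril protein of skin, tendon and bone, were higher in the KD but were not called. Col1a1 was at 0.920 FPKM in NT and 3.63 FPKM in the KD, a log2 fold of 1.27 with q = 0.104 in the authors' deposited table. Its partner chain Col1a2 was at 1.12 FPKM in NT and 4.03 FPKM in the KD, a log2 fold of 1.25. The q of Col1a2 in the authors' deposited table was 0.0505, the smallest of any tested row that was not called, and the largest q among called rows was 0.0478. Col1a2 lies on chromosome 6, and its log2 fold less the chromosome median was 0.99. Per length, the level of Col1a1 was 0.901 of that of Col1a2 in the KD and 0.824 in NT. These chains join in 1 heterotrimer.

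Type V collagen, which nucleates type I fibrils, showed the same direction without a call. Col5a1 stood at 1.02 FPKM in NT and 2.49 FPKM in the KD (log2 fold 0.79), with q = 0.173 in the authors' deposited table. Col5a2 was at 0.190 FPKM in NT and 1.22 FPKM in the KD. Its ratio of 6.44 was close to that of Bgn, yet at this low level the log2 fold with 1 FPKM added was 0.90, and the q in the authors' deposited table was 0.0616. The level of Col5a1 per length was 5.39 times that of Col5a2 in NT and 2.04 times in the KD, and this difference between the ratios was not tested.

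Col3a1, the chain of the type III fibrils of soft tissue, was not tested by the authors and stood at 0.0628 FPKM in NT and 0.244 FPKM in the KD. Its ratio of 3.88 lay between those of Col1a2 (3.61) and Col1a1 (3.95), but the level of Col1a1 per length was 14.9 times that of Col3a1 in the KD and 14.7 times in NT. Col3a1 and Col5a2 are neighbours on chromosome 1, 24.6 kb apart on mm9. The 5 fibrillar chains summed to 11.6 FPKM in KD cells and 3.31 FPKM in NT, whereas the 3 called genes made up 75.1% of the summed level of all 10 genes in the KD and 61.8% in NT.

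Col6a1 encodes a chain of the beaded filaments of collagen VI. It was at 0.132 FPKM in NT and 0.701 FPKM in the KD, a log2 fold of 0.59 with q = 0.228 in the authors' deposited table. Col6a2, whose chain assembles with it and whose gene is its neighbour on chromosome 10, was at 0.973 FPKM in NT and 0.710 FPKM in the KD and was not called. The level of Col6a1 per length was thus 0.136 of that of Col6a2 in NT and 0.987 in the KD. Col6a3, the third chain of the common trimer, was called higher, at 0.169 FPKM in NT and 1.46 FPKM in the KD, with q = 0.0410 in the authors' deposited table. Chromosome 10 as a whole had a median log2 fold of -0.19 over 655 rows.

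Fbn1 encodes fibrillin-1, the backbone of extracellular microfibrils. It stood at 1.00 FPKM in NT and 2.24 FPKM in the KD, the smallest ratio of the 10 genes, with a log2 fold of 0.69 and q = 0.223 in the authors' deposited table. It had the longest annotated transcript of the 10 genes, 12.0 kb in GENCODE M21. The most frequent product of low FPKM and transcript length in NT, 0.033 FPKM times kilobases (26 of 377 genes), was taken as 1 fragment. That puts Fbn1 at about 364 fragments in NT, Tnc at about 572, Col5a2 at about 38.1, Col6a1 at about 16.4 and Col3a1 at about 10.6. These are approximations from annotated lengths, and they show that the NT values of Col3a1 and Col6a1 rest on few fragments.

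Unadjusted, all 9 tested genes had a p-value under 0.01 in the authors' deposited table, from 5e-05 to 0.00805, while 2.98% of tested rows were higher with such a p-value and 6.1% with one under 0.05. At a q under 0.10 there were 5 genes, Col1a2 and Col5a2 joining the called ones, against 1.4% of tested rows. The median log2 fold of the 10 genes was 1.08, and that of all tested rows was 0.0069 with quartiles of -0.20 and 0.22. A log2 fold of at least 1 was reached by 5 of the 10 genes, Tnc, Bgn, Fbln2, Col1a1 and Col1a2, and by 2.72% of tested rows. Because 1 FPKM was added to each value, the fold of the low genes was understated. With 0.1 FPKM added, Col5a2 moved from 0.90 to 2.19, Col6a1 from 0.59 to 1.79 and Col3a1 from 0.23 to 1.08, while Tnc moved from 2.24 to 2.57.

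**Figure D2:**
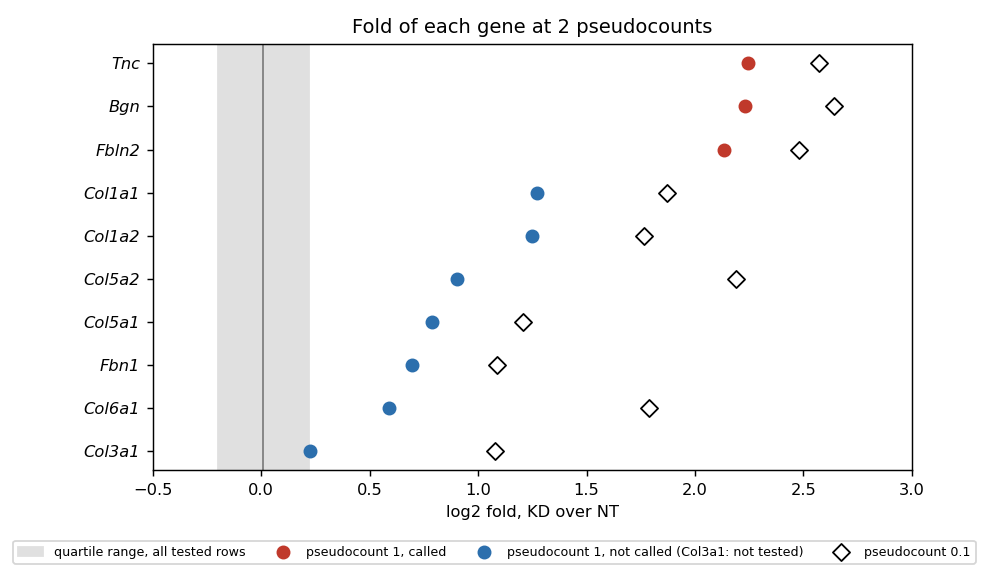
Log2 fold of KD over NT for each gene, with filled circles for a pseudocount of 1 FPKM (red where called), open diamonds for 0.1 FPKM, and a grey band for the quartile range of all tested rows, -0.20 to 0.22. At 1 FPKM the genes spread from 0.23 for Col3a1 to 2.24 for Tnc, and at 0.1 FPKM from 1.08 to 2.64.

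The 10 genes lie on 7 chromosomes. The nearest tested rows with 1 symbol on each side of them, leaving out Col5a2 as a neighbour of Col3a1, were 18 different genes. None was called, which for 18 genes is near the shares of all tested rows, 0.963% called higher and 0.187% lower. Tmem92, beside Col1a1, was listed at 0 in NT and at 1.29 FPKM in the KD. The log2 folds of the others ranged from -0.33 for Hdac11, beside Fbln2, to 0.40 for Ppp1r9b, on the other side of Col1a1. The median over all 18 neighbours was 0.042. Haus7 and Dusp9, on either side of Bgn, had log2 folds of 0.11 and 0.12.

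Close relatives of the called genes were mostly low or not called. Among all tested rows 0.963% were called higher, and no call among a few tested genes is near that share. With an unadjusted Cuffdiff p-value under 0.05, 6.1% of all tested rows were higher. The other tenascin genes Tnxb, Tnr and Tnn were all under 1 FPKM and not tested. Of 11 other small leucine-rich proteoglycan genes 3 were tested by the authors with Cuffdiff and none was called, and 1 had an unadjusted p-value under 0.05. Omd, osteomodulin, was the most abundant at 5.78 FPKM in KD cells and 4.40 FPKM in NT, and Dcn, decorin, the close homologue of Bgn, stood at 0.683 and 0.220 FPKM. Podn, podocan, at 0.688 and 0.119 FPKM, had a KD over NT ratio of 5.78, next to the 5.75 of Fbln2, and was not called (unadjusted p = 0.0098 in the authors' deposited table). The level of Bgn per length was 19.5 times that of Dcn in the KD and 9.29 times in NT. Fbln1, fibulin-1, was at 9.95 FPKM in KD cells and 10.9 FPKM in NT and was not called, so the level of Fbln2 was 0.227 of that of Fbln1 in NT and 1.43 times it in the KD. Fbn2, the second fibrillin gene, was not tested, at 0.270 and 0.152 FPKM. Among 6 other fibrillar collagen genes 4 were tested and none was called, and their log2 folds ranged from -0.39 for Col2a1, the cartilage collagen, to 0.48 for Col27a1. Differences between genes of a family were not tested.

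**Figure D3:**
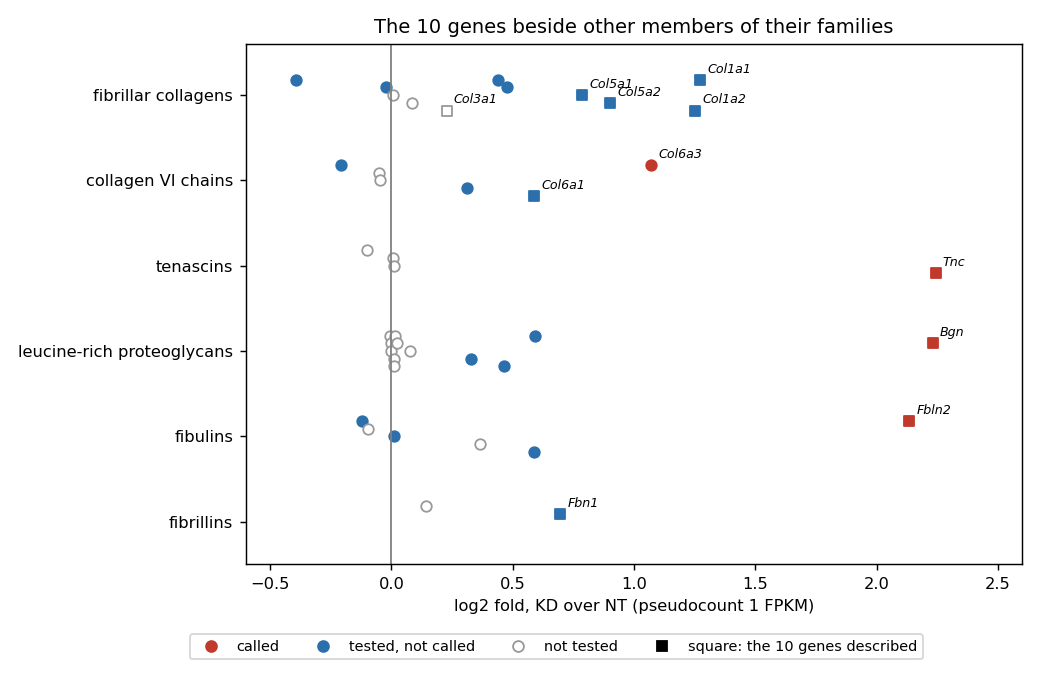
Log2 fold of KD over NT (1 FPKM added) for the 10 genes, drawn as squares, and the other genes of their families, drawn as circles, red where called, blue where tested and not called, open where not tested. Tnc, Bgn and Fbln2 lie above 2, and the highest circle on this scale, which understates low genes, is Col6a3 at 1.07.

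The wider matrix lists were read by the same calls, of which 0.963% of all tested rows had one for a higher level. Of 17 other interstitial collagen chains 10 were tested, 1 (Col6a3) rose, none fell and 9 were not called. The median log2 fold was 0.030 over all 17 and 0.37 over the 10 tested. Of these 10, 5 had an unadjusted Cuffdiff p-value under 0.05, all higher in the KD. Among all tested rows 6.1% were higher with such a p-value. Col26a1, the most abundant, was at 7.66 FPKM in KD cells and 10.8 FPKM in NT. Of 31 elastic fibre and matrix glycoprotein genes 16 were tested and 2 rose, with a median of 0.060. These were Sparc, a collagen-binding protein of secreted matrix (249 FPKM in the KD against 64.2 FPKM), and Thbs1, thrombospondin-1, an activator of latent TGF-beta (5.02 against 0.702 FPKM). Abundant members of that list were not called, among them Fn1, fibronectin, at 221 FPKM in KD cells and 256 FPKM in NT, and Ltbp4, a latent TGF-beta binding protein, at 70.2 and 71.0 FPKM. The 11 small leucine-rich proteoglycans had a median of 0.015.

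Several genes that make collagen ready for secretion rose. Of 25 genes of collagen secretion and processing 21 were tested, 3 rose, none fell and 18 were not called, with a median log2 fold of 0.22. Of the 21 tested, 19 were higher in the KD, and 8 of these had an unadjusted Cuffdiff p-value under 0.05. Among all tested rows 6.1% were higher with such a p-value. Serpinh1, the collagen chaperone HSP47, was at 145 FPKM in KD cells and 63.4 FPKM in NT. P4ha2, a subunit of collagen prolyl hydroxylase, was at 25.9 against 5.73 FPKM, and Plod2, a lysyl hydroxylase, at 40.9 against 19.7 FPKM. P4hb, the partner subunit of the prolyl hydroxylase, was at 159 against 102 FPKM and was not called. These enzymes and the chaperone also serve the basement membrane collagens. From the same list, Lox was at 1.84 FPKM in KD cells and 0.268 FPKM in NT, with q = 0.0657 in the authors' deposited table. Bmp1 was at 6.70 against 2.26 FPKM, with q = 0.0553 there, and neither was called.

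Among 10 collagen receptor genes 5 were tested and 1 rose, Itga2, a collagen-binding integrin subunit, at 3.14 FPKM in KD cells and 0.610 FPKM in NT. Ddr2, a receptor kinase for fibrillar collagen, was at 4.56 against 1.71 FPKM, and Itgb1, the partner subunit of Itga2, at 55.4 against 35.5 FPKM. Neither was called. The median log2 fold was 0.041 over all 10 genes and 0.63 over the 5 tested. Of these 5, 3 had an unadjusted Cuffdiff p-value under 0.05, all higher in the KD, and 6.1% of all tested rows were higher with such a p-value. Of 14 genes of TGF-beta, the growth factor best known for inducing fibrillar collagen, all were tested, 1 rose, none fell and 13 were not called, with a median of 0.38. Of the 14, 4 had an unadjusted Cuffdiff p-value under 0.05, all higher in the KD. The gene that rose was Ctgf, a target that encodes a matricellular protein (16.7 against 3.97 FPKM). The ligand gene Tgfb1 was at 4.12 against 2.35 FPKM, and the signal carriers Smad2 and Smad4 were at 30.7 against 18.0 FPKM and 28.6 against 26.1 FPKM. None of these 3 was called.

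**Figure D4:**
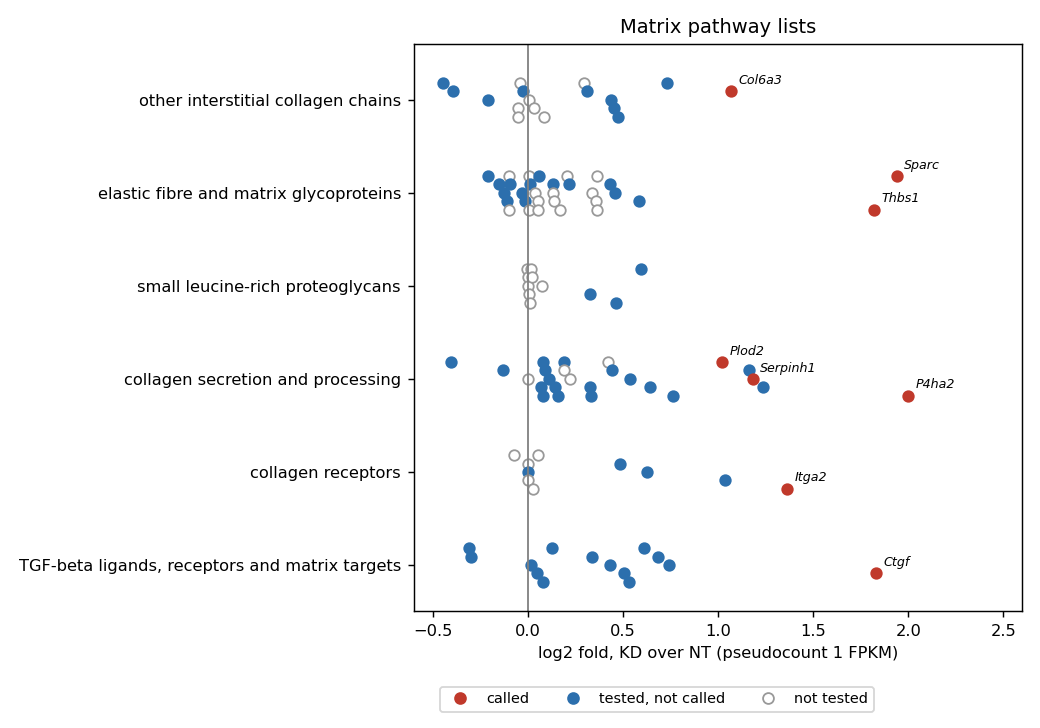
Log2 fold of KD over NT (1 FPKM added) for each gene of 6 matrix lists, red where called, blue where tested and not called, open where not tested. The called genes lie between 1.02 for Plod2 and 2.00 for P4ha2, and most of the other genes lie between -0.5 and 1.

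Markers of fibroblast identity bear on the name given to these genes. Of 18 such markers 10 were tested, 2 rose, none fell and 8 were not called, and 10 of 18 were under 1 FPKM in both conditions. The 2 were Pdgfra, a receptor also found on primitive endoderm (6.21 FPKM in the KD against 0.929 FPKM), and Vim, an intermediate filament of many cell types (102 against 42.8 FPKM). The list summed to 141 FPKM in KD cells and 71.2 FPKM in NT, and without Vim to 38.8 and 28.4 FPKM. Lum, lumican, was listed at 0 in both conditions, and Postn, Fap, Tcf21 and Dpt were under 0.1 FPKM in both. Mia3, a broadly used secretion gene, was also listed at 0 in both, but its row was placed on 1_random and not on a numbered chromosome. Whether the 0 of Lum, on chromosome 10, is a failed estimate was not tested. Of all 18 markers 14 were higher in the KD, with a median log2 fold of 0.27, and 3 of the tested ones had an unadjusted p-value under 0.05. Among all tested rows 0.963% were called higher, 50.9% had a higher value in the KD, and 6.1% were higher with such a Cuffdiff p-value. The mesenchymal transcription factor genes Twist1 (2.98 FPKM in KD cells against 1.13 FPKM), Twist2 (0.302 against 0.0375 FPKM) and Prrx1 (0.314 against 0.0623 FPKM) were higher in the KD but not called, as was the protease gene Mmp3 (0.559 against 0.0516 FPKM). Twist2 and Prrx1 were not tested. Fbln1, Mmp2 and Pdgfrb, at 9.95 against 10.9, 5.80 against 5.69 and 2.57 against 2.73 FPKM, were not called either. Since several fibroblast genes were listed at or near 0 and others were higher in the KD, the 10 genes are described here as interstitial matrix genes and are assigned to no cell type. In such bulk libraries more cells of a type and more RNA per cell cannot be told apart.

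Markers of parietal and visceral endoderm, the extraembryonic lineages that secrete basement membrane, were mostly higher in the KD too. Of 18 markers 15 were tested, 11 rose, none fell and 4 were not called, with a median log2 fold of 2.13. The 11 were Gata6, Gata4, Sox17, Sox7, Dab2, Lama1, Lamb1, Col4a1, Col4a2, Cubn and Pth1r. Of all 18 markers 17 were higher in the KD. Among all tested rows 0.963% were called higher and 50.9% had a higher value in the KD. Hnf4a was lower without a call, at 1.27 FPKM in KD cells and 1.65 FPKM in NT. The summed level of the 18 markers was 653 FPKM in KD cells and 158 FPKM in NT. Gata4, a transcription factor of these lineages, was at 16.7 FPKM in KD cells and 3.37 FPKM in NT. The basement membrane chain Col4a1 was at 109 FPKM in KD cells and 10.9 FPKM in NT, which is 30.1 times the level of Col1a1 per length in the KD and 11.8 times in NT. The visceral markers Ttr and Afp were listed at 0 in NT and stood at 0.532 and 0.0522 FPKM in the KD. The part of such cells, and of fibroblasts, in the levels of the 10 genes was not tested.

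The other marker lists are given beside the shares of all tested rows. Of these rows 0.963% were called higher, and 6.1% were higher with an unadjusted Cuffdiff p-value under 0.05. In a list with few tested genes, no call is near the first share. Of 8 smooth muscle genes 5 were tested and 1 rose, Acta2, smooth muscle actin, at 6.80 FPKM against 0.535 FPKM, with a list median of 0.60 and a summed level of 44.9 against 19.0 FPKM. Of the 5 tested 4 had an unadjusted p-value under 0.05, and 1 of these, Des, the muscle intermediate filament desmin, was lower in the KD without a call (5.12 against 10.1 FPKM). None of 5 tested endothelial genes was called by Cuffdiff, with 3 under an unadjusted p-value of 0.05 and a median of 0.32. None of 3 tested chondrocyte and bone genes was called by Cuffdiff, with 2 under that p-value and a median of 0.025. The macrophage and blood list had 1 tested row, that of Cd68, which carries the symbols of several other genes, and its remaining 6 genes were under 1 FPKM in both conditions. Its median was 0.015. None of the 9 ES cell genes was called by Cuffdiff or had an unadjusted p-value under 0.05. Their median was 0.093, and 8 of them with rows of their own summed to 3517 FPKM in KD cells and 3421 FPKM in NT. Pou5f1, which encodes OCT4, was at 1078 FPKM in KD cells and 1036 FPKM in NT, so the labelled cell type had its defining markers in both conditions.

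**Figure D5:**
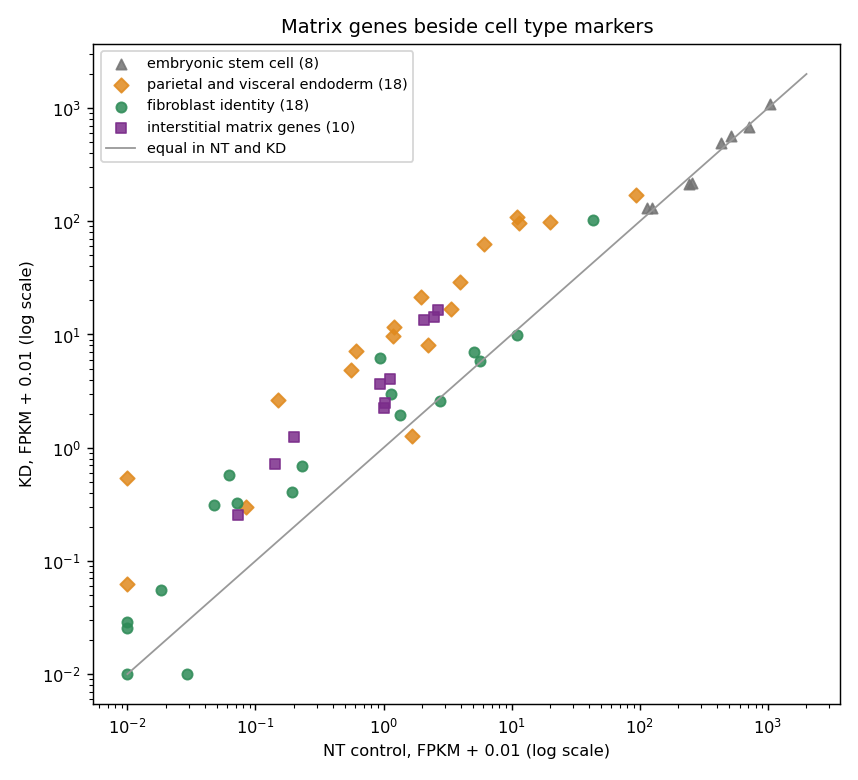
FPKM in NT (x) and in the KD (y), each with 0.01 added and on log scales, for the 10 interstitial matrix genes and the markers of fibroblast identity, endoderm and ES cells, with a line where both are equal. The ES cell genes lie along the line at the upper right, the matrix genes lie above it at 16.3 FPKM or less, and 5 fibroblast markers lie under 0.1 FPKM in both conditions.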

How the data were processed

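Per the submitters' processing notes, TopHat, Cufflinks and Cuffdiff were run with the mouse build mm9. Their versions, the annotation, any use of strand and how libraries were scaled to each other were not given in the sources used here. Per the file headers, the deposited table gives each row an FPKM for treated and an FPKM for control cells. Treated was read as the KD (3 clones in 1 value) and control as the NT library. The p-value and q-value of each row were deposited by the authors as Cuffdiff's output, and Benjamini-Hochberg adjustment over the 15477 tested rows gave the same q to within 5.2e-07. No test was run on the FPKM, since each condition has 1 value.

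For each symbol the row with the highest mean FPKM was used. Log2 folds are log2((KD FPKM + 1)/(NT FPKM + 1)). Medians, adjustments and figures were made in Python 3.11.15 with pandas 2.3.3 and tested on simulated data. Sequencing depth is not stated; in NT 3 fragments on a 2 kb transcript would be about 0.0495 FPKM, from the most frequent product of low FPKM and length (26 of 377 genes), which covers counting error only.

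The 10 genes, 6 pathway lists and 7 marker lists were chosen with earlier results of these data known. Beside the 10 genes, the text names the called genes and up to 4 of the most abundant uncalled genes of each list. Which of these abundant genes are named was not set by a rule. Others were chosen after their values were seen: Dcn, Lum, Postn, Fap, Tcf21, Dpt, Ttr, Afp, Tnxb, Tnr, Tnn, Fbn2, Col6a2, Col11a1, Col27a1, Lox, Bmp1, Tgfb1, Twist1, Twist2, Prrx1, Mmp3, Mia3 and the neighbouring genes. In the TGF-beta list 1 gene is not reported here and was left out of its counts and median. The lists share some genes, Dcn and Fbln1 among them.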

Additional observations from a re-analysis of the deposited data

How the results depend on the processing

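The member calls and folds rest on 1 control library and on a KD value pooled by the authors, so leaving out a clone was not possible. No paired analysis was possible because each condition has 1 deposited value. All 50 alternative values of the single genes (other pseudocounts, 2 scalings, summed rows) stayed above 0, but these settings could not have turned the sign. A pseudocount leaves the sign of a fold as it is, and each symbol had 1 row. The scalings divided the KD values by 1.014 and 1.007, against a smallest KD over NT ratio of 2.24. The median log2 fold of the 10 genes was 1.08 and became 1.83 with a pseudocount of 0.1 FPKM, 2.15 with 0.01 FPKM, and 1.69 over genes with at least 1 FPKM in both conditions. Under the other alternatives it lay between 0.84, without chromosomes 6, 10, X and Y, and 1.26. The count of 3 called genes became 5 at a q of 0.10 and 9 at an unadjusted p-value of 0.05. It was 4 with adjustment over the 13455 rows at 1 FPKM in either condition, where Col1a2 had an adjusted Cuffdiff p of 0.0446, and 2 without chromosome 6, a setting chosen after seeing the data. Among the lists, keeping genes with at least 1 FPKM in either condition turned the median of other interstitial collagens from 0.030 to -0.023. It gave 0.022 for elastic fibre and glycoprotein genes, 0.33 for small leucine-rich proteoglycans, 0.63 for collagen receptors, 1.55 for smooth muscle, 0.71 for endothelium, 0.025 for macrophage and blood, and 0.056 for chondrocyte and bone. A pseudocount of 0.1 FPKM gave 0.24 for other interstitial collagens, 0.27 for elastic fibre and glycoprotein genes, 0.13 for proteoglycans, 0.50 for collagen secretion, 0.28 for collagen receptors, 0.49 for fibroblast identity, 1.28 for smooth muscle, 1.09 for endothelium, 0.094 for macrophage and blood, and 0.23 for chondrocyte and bone. These list shifts follow from which low genes are kept or from the smaller pseudocount.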
